A study of Mus musculus with 2 samples.

Results

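Troponin is the calcium switch of striated muscle, and all 8 genes of its subunits were examined in the limb of the mouse embryo, together with their splice forms. The genes are Tnnc1 and Tnnc2 for troponin C, Tnni1, Tnni2 and Tnni3 for troponin I, and Tnnt1, Tnnt2 and Tnnt3 for troponin T. They were chosen by name as the complete family of subunit genes. They made up 8 of the 43346 gene rows and 82 of the 103639 transcript rows of the deposited tables.

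The troponin complex sits at regular intervals along the actin filament. Troponin C binds calcium, troponin I holds the filament in its blocked state until calcium arrives, and troponin T fixes the complex to tropomyosin. Slow skeletal, fast skeletal and cardiac muscle use different genes for the subunits, and the slow and cardiac programmes share Tnnc1. Embryonic skeletal muscle is known to transcribe cardiac isoforms as well. The troponin T genes are also known for small alternative exons near the 5′ end of the coding sequence, whose use changes as muscle matures.

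The study sequenced polyadenylated RNA of whole limb tissue from C57BL/6J embryos at embryonic day 14.5. Its only group, E14.5 limb, has 2 biological replicates, and each library pooled littermates of both sexes. No treatment or second genotype was included, so the data give levels, contrasts between genes and the difference between the libraries, with no comparison of conditions. Fore- or hindlimb is not specified, nor whether the 2 pools are separate litters. Intervals of differences between genes given below therefore reflect variation among these pools, part of which may be technical. Each p given below is from a binomial test on counts and covers counting error only. The deposited intervals are given for each library separately and do not measure variation among the pools. Gene rows held 110172148 counts in replicate 1 and 103363136 in replicate 2, and every troponin gene had a whole-number count in both.

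All 8 troponin genes were detected in both libraries at 1 TPM or more. TPM is a level per transcript length, and is used here to compare genes with each other. Slow-type and fast-type RNA were present side by side. Tnnc1 led at 314 ± 95.3 TPM (SD, n = 2), followed by Tnni1 at 291 ± 8.33, Tnnc2 at 207 ± 86.4 and Tnnt1 at 139.6 ± 82.2 TPM. Tnni2 averaged 89.4 ± 56.1 TPM, Tnnt3 62.95 ± 43.8 and Tnnt2 62.93 ± 37.5 TPM. Tnni3, the cardiac troponin I, was lowest at 8.66 ± 0.212 TPM. By mean TPM Tnnc1 ranked 377 and Tnni3 ranked 10127 among all gene rows.

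Most neighbours in this order had means no further apart than the sum of their SDs. That measure does not use that both genes were measured in the same libraries. Tnnc1 over Tnni1 was 1.28-fold in replicate 1 and 0.864-fold in replicate 2, so the first place changed between libraries. Tnnt3 over Tnnt2 was 1.05-fold in replicate 1 and 0.879-fold in replicate 2, which also turned the order round. The other neighbours kept their order in both libraries, but of all 7 neighbouring pairs only Tnnt2 and Tnni3 had means further apart than both SDs. Tnnt2 was 10.2-fold above Tnni3 in replicate 1 and 4.27-fold above it in replicate 2.

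**Figure D1:**
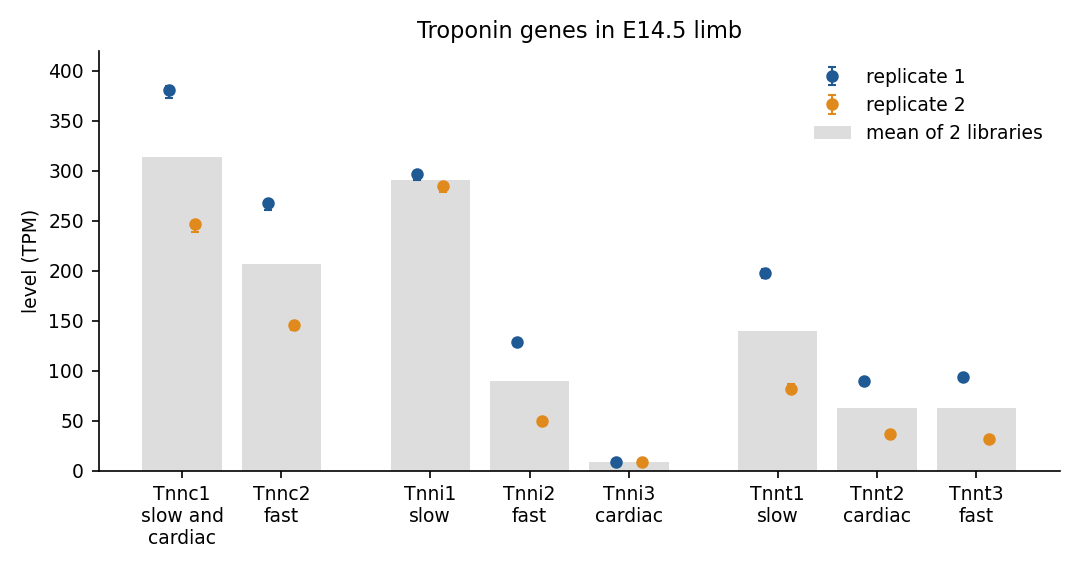
Level of each troponin gene in E14.5 limb, in TPM on a linear axis, grouped by subunit with the muscle type that mainly uses each gene. Points are the 2 libraries with the deposited interval of each TPM, and grey bars are their mean; replicate 1 lies well above replicate 2 for 6 genes, while Tnni1 (297 and 285 TPM) and Tnni3 (8.81 and 8.51 TPM) are nearly level.

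Troponin C RNA came from both genes. Tnnc1 (chr14:31208312-31211729, plus strand, GRCm38/mm10) encodes the calcium sensor shared by slow skeletal and heart muscle. It had 381 TPM from 14783 counts in replicate 1 and 246 TPM from 8430 counts in replicate 2. Tnnc2 (chr2:164777161-164779967, minus strand), the fast skeletal form, had 268 TPM from 10062 counts in replicate 1 and 146 TPM from 4819 counts in replicate 2. Tnnc1 was higher than Tnnc2 in both libraries, with 58.7% and 62.8% of the troponin C total in replicates 1 and 2. The log2 difference of Tnnc1 over Tnnc2 was 0.63 (SE 0.32, limma fit over 15055 genes on log2(TPM + 1)), with a 95% interval of -0.16 to 1.42 that includes 0. In CPM, counts scaled by library size and not by length, it was 0.67 with an interval of 0.070 to 1.27. In the fit each pair of genes is compared over the 2 libraries, with the spread of each gene moderated by that of all genes. The interval combines the 2 spreads as if independent, so a shift that both genes share between libraries widens it.

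Each troponin C gene used almost a single transcript. Tnnc1-202 carried 94.6% and 94.99% of the TPM of Tnnc1 in replicates 1 and 2, and Tnnc2-201 carried 99.9% and 100% of Tnnc2. Tnnc2 overlaps Ube2c, a cell-cycle ubiquitin-conjugating enzyme on the opposite strand, over 592 exon bases. Ube2c itself had 244 TPM in replicate 1 and 269 TPM in replicate 2. The libraries are strand-specific, but whether the counting used the strand is not stated in the sources used, so the level of Tnnc2 is less certain than that of Tnnc1. Tnnc1 lies within Nisch on the opposite strand and shares no exon base with it.

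Troponin I was mostly the slow form. Tnni1 (chr1:135779434-135810989, plus strand), the slow skeletal inhibitor that early embryonic muscle uses widely, had 297 TPM from 20030 counts in replicate 1 and 285 TPM from 17372 counts in replicate 2. Tnni2 (chr7:142441808-142444410, plus strand), the fast skeletal inhibitor, had 129 TPM from 5195 counts in replicate 1 and 49.7 TPM from 1804 counts in replicate 2. Tnni1 was nearly level in both libraries while Tnni2 was not, so the slow share of the troponin I total was 68.3% in replicate 1 and 83.0% in replicate 2. Tnni1 exceeded Tnni2 by 1.85 on the log2 scale (SE 0.36, limma), with a 95% interval of 0.95 to 2.75. Without a filter on low genes the interval was -0.90 to 4.60. The difference was 1.20 in replicate 1 and 2.497 in replicate 2.

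Tnni3 (chr7:4518305-4524229, minus strand), the inhibitor of the adult heart, had 8.81 TPM from 399 counts in replicate 1 and 8.51 TPM from 375 counts in replicate 2. It supplied 2.03% and 2.48% of the troponin I total in replicates 1 and 2. Tnni1 over Tnni3 had a log2 difference of 4.92 (SE 0.19, limma; 95% interval 4.44 to 5.40). Tnni2 over Tnni3 had a log2 difference of 3.07 (SE 0.34, limma; 95% interval 2.21 to 3.93). Tnni3 shares 86 exon bases with Dnaaf3, a dynein assembly factor on the same strand with 6.87 TPM in replicate 1 and 7.72 TPM in replicate 2. Only Tnni3-207 holds those bases among the annotated Tnni3 transcripts, and it had 2.67 counts in replicate 1 and 4 in replicate 2, a small part of the total of Tnni3.

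The troponin I genes differed in how their RNA was divided among transcripts. Tnni1-207 held 97.9% and 98.2% of Tnni1 in replicates 1 and 2. Tnni2 was divided between 2 coding transcripts of the same coding length, 546 bases, that begin with different first exons. Tnni2-201 had 112 TPM in replicate 1 and 32.3 TPM in replicate 2, whereas Tnni2-206 had 14.2 TPM in replicate 1 and 15.4 TPM in replicate 2. The deposited intervals of Tnni2-206 overlapped between the libraries and those of Tnni2-201 did not. The share of Tnni2-206 was therefore 10.97% in replicate 1 and 31.0% in replicate 2. Of Tnni3, the coding transcript Tnni3-201 held 70.5% and 72.9% in replicates 1 and 2. A retained-intron transcript, Tnni3-206, held 11.3% of Tnni3 in replicate 1, from 41.9 counts, and 21.1% in replicate 2, from 67.4 counts. The deposited intervals of Tnni3-206 overlapped between the libraries.

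Troponin T RNA came from all 3 genes, with the slow gene leading. Tnnt1 (chr7:4504570-4516382, minus strand), the slow skeletal form, had 198 TPM from 10723 counts in replicate 1 and 81.5 TPM from 4086 counts in replicate 2. Tnnt2 (chr1:135836354-135852260, plus strand), the cardiac form that embryonic skeletal muscle also makes, had 89.5 TPM from 6326 counts in replicate 1 and 36.4 TPM from 2486 counts in replicate 2. Tnnt3 (chr7:142498836-142516009, plus strand), the fast skeletal form, had 93.9 TPM from 5448 counts in replicate 1 and 32.0 TPM from 1657 counts in replicate 2. All 3 genes were higher in replicate 1, yet their shares of the troponin T total stayed close between the libraries. Tnnt1 held 51.9% and 54.4%, Tnnt2 23.5% and 24.3%, and Tnnt3 24.6% and 21.3% in replicates 1 and 2.

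Tnnt1 over Tnnt3 had a log2 difference of 1.19 (SE 0.47, limma), with a 95% interval of 0.014 to 2.38 whose lower end lies next to 0. Tnnt2 over Tnnt1 had a log2 difference of -1.14 (SE 0.43, limma; 95% interval -2.23 to -0.048) and had the same value, -1.14, in each library. With a pseudocount of 0.1 the first interval was -0.0088 to 2.43, and in CPM Tnnt2 over Tnnt1 was -0.72 with an interval of -1.52 to 0.076. Without a filter on low genes both intervals also included 0. Tnnt2 over Tnnt3 had a log2 difference of 0.056 (SE 0.47, limma), with an interval of -1.12 to 1.23. Within the libraries it was -0.069 in replicate 1 and 0.18 in replicate 2, so the cardiac and the fast gene could not be ordered. The interval is wider than these values because it includes the shift of both genes between the libraries.

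Genes of heart muscle were examined beside Tnnt2, since heart tissue also makes this troponin, and their part in its level was not tested. Of 12 heart muscle genes, 9 were under 1 TPM in both libraries. Myh6, the atrial myosin heavy chain, had 0.56 TPM in replicate 1 and 0.31 TPM in replicate 2. Myl7, the atrial light chain, had 0.31 TPM in replicate 1 and 0.16 TPM in replicate 2. Nkx2-5, a cardiac transcription factor, had 0.05 TPM in replicate 1 and 0.12 TPM in replicate 2, and Nppa had 0 counts in replicate 1 and 12 in replicate 2. The summed heart list was 119.6 TPM in replicate 1 and 163 TPM in replicate 2, and Sln, a calcium-pump regulator that skeletal muscle makes too, supplied 91.0 TPM of it in replicate 1 and 128 TPM in replicate 2. Tbx18, a transcription factor also active in mesenchyme, had 25.6 TPM in replicate 1 and 30.9 TPM in replicate 2, and Hcn4, a pacemaker channel, 1.03 and 1.66 TPM.

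All 18 alternative coding segments with an inclusion between 5% and 95% lay in the troponin T genes, and the exons the results turn on are shown here. The sequences are from GENCODE M21 transcripts of GRCm38, written 5′ to 3′ on the strand of the gene. The alternative exon is in capitals, with 15 bases of the neighbouring exons of the same transcript on either side in lower case. These are the exons of Tnnt1 (chr7:4513581-4513613, minus strand) and Tnnt2 (chr1:135843785-135843814, chr1:135842015-135842026 and chr1:135850379-135850387, plus strand).
Tnnt1 33-base exon: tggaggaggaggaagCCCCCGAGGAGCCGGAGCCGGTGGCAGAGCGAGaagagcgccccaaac
Tnnt2 30-base exon: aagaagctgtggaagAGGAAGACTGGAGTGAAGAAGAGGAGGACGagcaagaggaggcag
Tnnt2 12-base exon: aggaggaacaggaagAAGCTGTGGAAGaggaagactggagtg
Tnnt2 9-base exon: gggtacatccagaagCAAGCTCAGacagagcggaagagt

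The alternative coding exons of Tnnt3 between the start of the coding sequence and the pair described further on are these, in order along the plus strand. They lie at chr7:142502740-142502757, chr7:142504250-142504264, chr7:142505288-142505299, chr7:142505516-142505530 and chr7:142507750-142507788.
Tnnt3 18-base exon: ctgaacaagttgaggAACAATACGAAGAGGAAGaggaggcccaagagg
Tnnt3 first 15-base exon: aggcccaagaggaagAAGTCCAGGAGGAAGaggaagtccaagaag
Tnnt3 12-base exon: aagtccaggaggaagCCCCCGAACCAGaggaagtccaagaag
Tnnt3 second 15-base exon: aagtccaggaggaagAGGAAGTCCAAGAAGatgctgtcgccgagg
Tnnt3 39-base exon: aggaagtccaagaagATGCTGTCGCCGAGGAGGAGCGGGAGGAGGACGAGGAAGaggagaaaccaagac

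In Tnnt1 the 33-base exon was mostly included. Inclusion is given as the TPM of the transcripts that hold an exon, in percent of those that hold or skip it. The 33-base exon was at 75.3% in replicate 1 and 87.7% in replicate 2. Transcripts that skip it had 1837 counts in replicate 1 and 360 counts in replicate 2. The main forms with the exon were Tnnt1-201, at 35.2% and 39.7% of the gene, and Tnnt1-203, at 28.9% and 29.2%. Among the forms without it, Tnnt1-209 had 32.4 TPM in replicate 1 and 4.14 TPM in replicate 2, and Tnnt1-206 had 13.5 and 5.06 TPM. Tnnt1-210, which holds the exon, had 8.73 and 6.24 TPM in replicates 1 and 2. Of these forms, Tnnt1-209 differed most in share, which was 16.4% in replicate 1 and 5.08% in replicate 2. Its model is shorter, at 665 bases against 1027 for Tnnt1-201 and 1059 for Tnnt1-203. How the reads were divided among these models was not tested.

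The exon that follows in Tnnt1 (chr7:4512265-4512286, minus strand) begins at either of 2 acceptor sites that lie 3 bases apart. It is shown with those 3 optional bases in capitals, after the last 15 bases of the 33-base exon.
Tnnt1 22-base exon: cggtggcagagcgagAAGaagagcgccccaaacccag
The longer version was in 4 annotated transcripts and the shorter in 3. Transcripts with the longer version summed to 98.3 TPM in replicate 1 and 34.2 TPM in replicate 2, against 87.9 and 40.7 TPM for the shorter version in replicates 1 and 2. The longer version was 52.8% of both in replicate 1 and 45.6% in replicate 2, so both sites were used and the larger of the pair was not the same in both libraries.

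In Tnnt2 the 30-base exon, known as the embryonic exon of cardiac troponin T, was almost always included. It was at 97.2% in replicate 1 and 96.8% in replicate 2, from 4863 and 1498 counts of transcripts that hold it. It was named after its values were seen, because its inclusion lies above the range of 5% to 95% that was set for naming exons. The 12-base exon was at 85.0% in replicate 1 and 92.4% in replicate 2. The 9-base exon, in the 3′ part of the coding sequence, was mostly skipped, with 14.4% inclusion in replicate 1 and 9.49% in replicate 2. Counts of transcripts that hold the 9-base exon were 735 in replicate 1 and 151 in replicate 2. Extensions of 4 to 7 bases at the borders of the 12-base and 30-base exons were held by 6.71% to 8.75% of the TPM of covering transcripts in replicate 1 and 13.6% to 15.7% in replicate 2. Among protein-coding transcripts alone they were at 3.07% or less in both.

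The main transcripts of Tnnt2 differed in these exons. Tnnt2-207, with the 30-base and 12-base exons and without the 9-base exon, had 58.4 TPM in replicate 1 and 21.1 TPM in replicate 2, or 65.2% and 58.1% of the gene. Tnnt2-204, with the 30-base and 9-base exons and without the 12-base exon, had 8.98 TPM in replicate 1 and 1.5 TPM in replicate 2. The retained-intron transcripts Tnnt2-210 and Tnnt2-208 had 7.92 and 4.77 TPM in replicate 1 and 5.92 and 3.91 TPM in replicate 2. Tnnt2-210 is 292 bases long, and its level rested on 56 counts in replicate 1 and 28 in replicate 2.

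Of the 6 genes with retained-intron transcripts, 3 were more than 2-fold higher in replicate 1 in coding RNA and less than 1.5-fold higher in retained-intron RNA. Coding transcripts of Tnnt2 summed to 76.1 TPM in replicate 1 and 26.02 TPM in replicate 2, a 2.92-fold difference. Its retained-intron transcripts summed to 13.4 TPM in replicate 1 and 10.4 TPM in replicate 2, 1.29-fold. For Tnnt3 the coding sum was 85.5 TPM in replicate 1 and 26.6 TPM in replicate 2, 3.22-fold, and the retained-intron sum was 6.22 and 4.67 TPM, 1.33-fold. For Tnni2 the coding sum was 127 TPM in replicate 1 and 48.0 TPM in replicate 2, 2.65-fold, and the retained-intron sum was 1.70 and 1.65 TPM, 1.03-fold. That small sum joins 2 transcripts that went opposite ways. Tnni2-203 was at 0.588-fold, from 36.69 and 55.65 counts in replicates 1 and 2. Tnni2-204 was at 2.17-fold, from 44.38 and 17.98 counts. In these sums the other genes did not share this pattern. Tnnt1 was at 2.51-fold for coding and 2.60-fold for retained-intron transcripts, Tnnc1 at 1.54-fold and 1.73-fold, and Tnni3 at 0.978-fold and 0.947-fold. The 2 retained-intron transcripts of Tnnt1 differed, however. Tnnt1-211 was at 1.01-fold, from 90.5 and 79.7 counts in replicates 1 and 2. Tnnt1-212 was at 13.2-fold, from 83.2 and 5.35 counts. With 1 group of 2 libraries, no test of this difference was made.

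**Figure D2:**
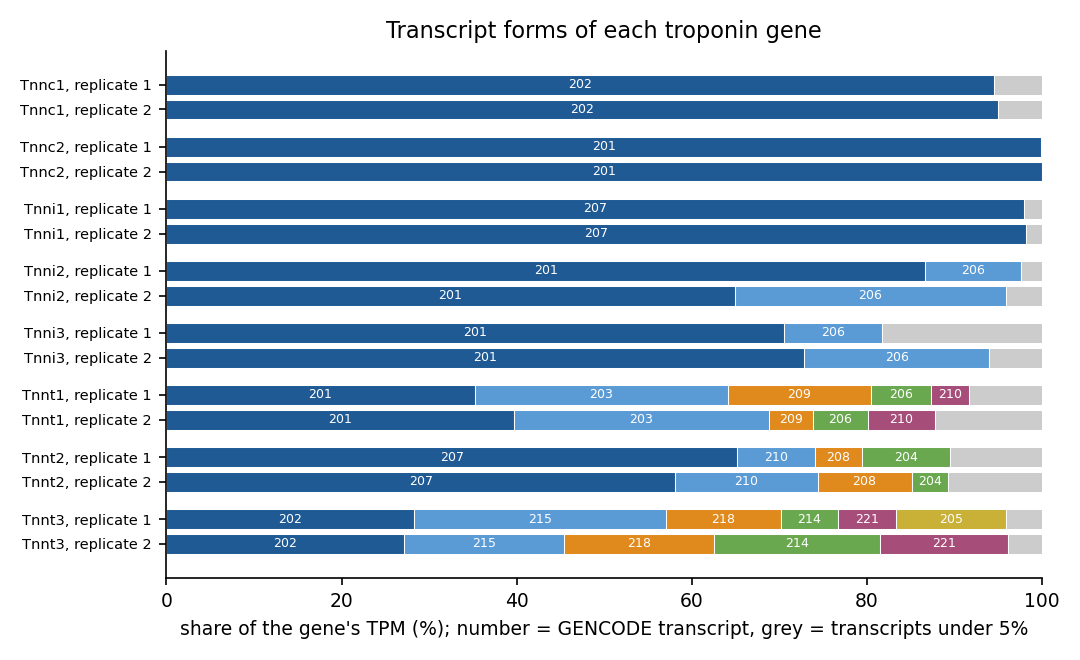
Share of each gene's TPM held by its transcripts, in percent, with a bar for replicate 1 above a bar for replicate 2. Coloured blocks are GENCODE transcripts with a mean share of at least 5% and grey is the rest; troponin C genes and Tnni1 have a single block of 94.6% or more, while the troponin T genes are divided among 4 to 6 blocks.

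Tnnt3 had the most varied splice forms, with 26 annotated transcripts, of which 14 had no counts in either library. The 18-base exon was at 79.4% in replicate 1 and 77.8% in replicate 2. The first 15-base exon was at 52.8% in replicate 1 and 75.7% in replicate 2, the widest gap among the named exons. The 12-base exon was mostly skipped, at 15.5% in replicate 1 and 21.6% in replicate 2. The second 15-base exon was at 85.5% in replicate 1 and 100% in replicate 2. The 39-base exon, known as the fetal exon of fast troponin T, was at 85.5% in replicate 1 and 99.6% in replicate 2. By posterior mean TPM the gaps of these last 2 exons were smaller. The second 15-base exon was then at 84.9% in replicate 1 and 93.95% in replicate 2, and the 39-base exon at 83.7% and 91.6%.

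The gap in the last 2 exons rested mainly on 1 transcript. Tnnt3-205, which lacks both, had 11.9 TPM from 464 counts in replicate 1 and 0 counts in replicate 2. Its model has 720 bases, of which 717 are coding, against 1067 bases for Tnnt3-202. Tnnt3-204, with the same 2 lengths as Tnnt3-205, had 0 counts in both libraries. How the reads were divided among such models was not tested. The first 15-base exon is lacking in Tnnt3-205 and in Tnnt3-215, which had 27.0 TPM in replicate 1 and 5.82 TPM in replicate 2. Tnnt3-202, which holds the 18-base, both 15-base and the 39-base exons, was the more even of the main forms, with 28.3% and 27.2% of the gene in replicates 1 and 2. Tnnt3-218, the main form with the 12-base exon, had 12.3 TPM in replicate 1 and 5.50 TPM in replicate 2. Tnnt3-214, which lacks the 18-base exon, was close to level, with 6.15 TPM in replicate 1 and 6.07 TPM in replicate 2, so its share was 6.55% in replicate 1 and 19.0% in replicate 2.

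Near the 3′ end, Tnnt3 has a pair of 41-base exons of which each transcript holds at most 1. They lie at chr7:142513665-142513705 and chr7:142514326-142514366 (plus strand), and are shown because the choice between them sets that stretch of the coding sequence. Bases that differ between them are in capitals.
Tnnt3 upstream 41-base exon: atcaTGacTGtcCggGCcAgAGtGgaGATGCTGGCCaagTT
Tnnt3 downstream 41-base exon: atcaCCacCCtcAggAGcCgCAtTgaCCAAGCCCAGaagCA
Both exons share 18 of 41 bases, or 43.9%. The upstream exon was in 7 annotated transcripts, the downstream exon in 14, and none held both. Transcripts with the downstream exon summed to 60.5 TPM in replicate 1 and 21.1 TPM in replicate 2, and those with the upstream exon to 24.7 and 5.50 TPM. The downstream exon was therefore the more used in both libraries, with 71.0% of the pair in replicate 1 and 79.3% in replicate 2. In replicate 1 the upstream form included Tnnt3-205 as well as Tnnt3-218.

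**Figure D3:**
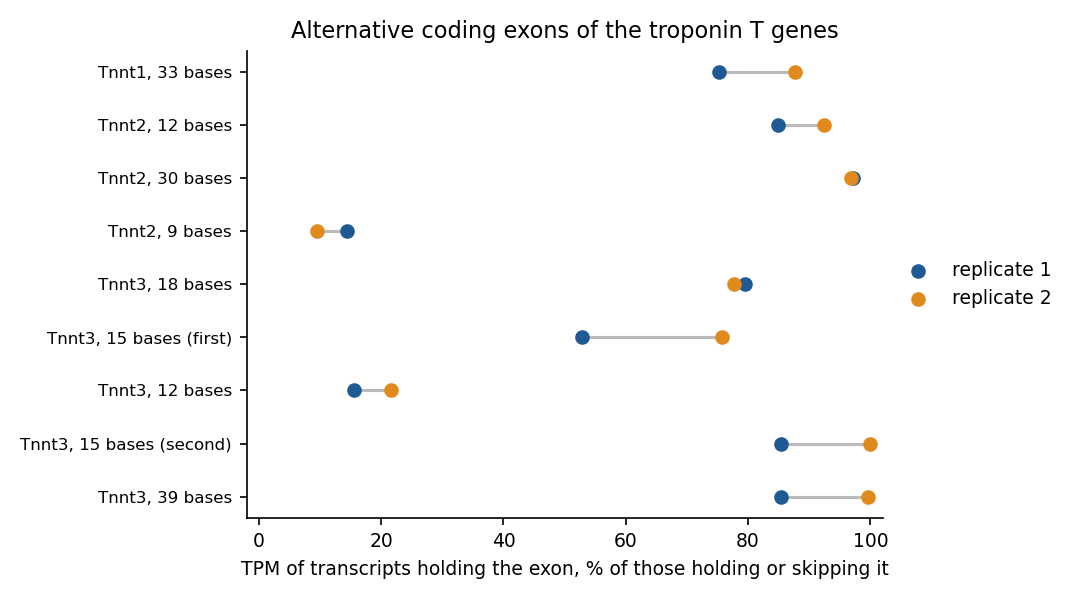
Inclusion of alternative coding exons of Tnnt1, Tnnt2 and Tnnt3 in each library, as the TPM of transcripts holding the exon in percent of those holding or skipping it, in order of position in the genome within each gene. Points are the 2 libraries and the line joins them; the 30-base exon of Tnnt2 is above 96% in both, and the first 15-base exon of Tnnt3 has the widest gap, 52.8% and 75.7% in replicates 1 and 2.

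Summed by subunit, troponin C was highest and troponin T lowest in both libraries, but their ranges of mean ± SD overlapped. Troponin C came to 649 TPM in replicate 1 and 392 TPM in replicate 2. Troponin I came to 435 TPM in replicate 1 and 343 TPM in replicate 2. Troponin T came to 381 TPM in replicate 1 and 149.9 TPM in replicate 2. The means were 520.4 ± 182 TPM for troponin C, 389 ± 64.7 TPM for troponin I and 265 ± 164 TPM for troponin T (SD, n = 2). Troponin C over troponin T was 1.70 in replicate 1 and 2.62 in replicate 2, and troponin I over troponin T was 1.14 in replicate 1 and 2.29 in replicate 2. All 8 genes together came to 1465 TPM in replicate 1 and 885 TPM in replicate 2.

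Most troponin genes had higher levels in replicate 1 than in replicate 2. An exact two-sided binomial test on the counts, adjusted by Benjamini-Hochberg over all 20396 genes tested, called 7 of the 8 genes higher in replicate 1 and none higher in replicate 2. At this depth the same test called 29.9% of all genes higher in replicate 1 and 30.1% higher in replicate 2. It compares these libraries, not conditions, and covers counting error only, so the size of the ratio says more than the call. Tnni3 was not called (adjusted p = 0.903, binomial test). Tnni1 was called (adjusted p = 3.09e-09, binomial test) at 1.07-fold in counts scaled by library size, and was at 1.04-fold in TPM.

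By size, 6 of the 7 troponin genes averaging 10 TPM or more were at least 1.5-fold higher in replicate 1, against 5.95% of the 9623 genes at that level. None of the 7 was at least 1.5-fold higher in replicate 2, against 2.67% of those genes. The ratios of replicate 1 over replicate 2 were 2.94-fold for Tnnt3, 2.60-fold for Tnni2, 2.46-fold for Tnnt2 and 2.43-fold for Tnnt1. These 4 genes also passed 2-fold, which 1.31% of the genes at that level did, and 0.457% were 2-fold higher in replicate 2. Tnnc2 was at 1.84-fold and Tnnc1 at 1.55-fold. A ratio as high as that of Tnnt3 was found in 29 of the 9623 genes, and one as high as that of Tnnc1 in 489. In bulk tissue, fewer muscle cells and less RNA per cell cannot be told apart.

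Within each subunit the fast gene had the highest ratio, Tnnc2 for troponin C, Tnni2 for troponin I and Tnnt3 for troponin T, and this order was not tested. Across subunits the classes overlapped, since the slow Tnnt1 and the cardiac Tnnt2 had higher ratios than the fast Tnnc2. Tnni1, the slow inhibitor, stayed at 1.04-fold while the slow Tnnt1 was at 2.43-fold. Troponin genes that lie near each other on a chromosome, not always as direct neighbours, had unlike ratios in 2 of 3 cases. Tnni1 and Tnnt2 lie 25364 bases apart on the same strand of chromosome 1, with log2 ratios of 0.058 and 1.30. Tnni3 and Tnnt1 lie 1922 bases apart on chromosome 7, with log2 ratios of 0.050 and 1.28. Tnni2 and Tnnt3, 54425 bases apart on chromosome 7, had log2 ratios of 1.38 and 1.55.

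Other genes of the thin filament had smaller ratios between the libraries than most troponins. Actc1 and Acta1, the cardiac and skeletal actins of the thin filament, were nearly level, with 1117 and 686 TPM in replicate 1 and 1147 and 654 TPM in replicate 2. Tpm1 and Tpm2, the tropomyosins to which troponin T binds, were at 534 and 302 TPM in replicate 1 and 343 and 169 TPM in replicate 2. Of the 8 thin filament partners averaging 10 TPM or more, 2 were at least 1.5-fold higher in replicate 1 and none in replicate 2, with a median log2 ratio of 0.26.

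Developmental and fast fibre genes at the higher levels came closer to the troponins. Of the 11 listed, 4 were under 1 TPM in both libraries, namely Myh1, Myh2, Myh4 and Pvalb. Of the 6 averaging 10 TPM or more, 4 were at least 1.5-fold higher in replicate 1, with a median log2 ratio of 0.72. Mylpf, the fast regulatory light chain, had 917 TPM in replicate 1 and 453 TPM in replicate 2. Myl1 had 161 TPM in replicate 1 and 103 TPM in replicate 2, and Myh3, the embryonic myosin heavy chain, had 159 and 91.5 TPM. Atp2a1, the fast-fibre calcium pump, was at 74.7 TPM in replicate 1 and 86.8 TPM in replicate 2. Of 7 slow fibre genes at that level, 3 were at least 1.5-fold higher in replicate 1, with a median log2 ratio of 0.57. Atp2a2, a calcium pump that slow fibres use and the highest of them, was level, with 83.0 TPM in replicate 1 and 84.2 TPM in replicate 2. Which cells of the whole limb supplied it was not tested. Casq2, a calcium store protein, had 76.1 TPM in replicate 1 and 51.2 TPM in replicate 2, or 1.49-fold. Myh7b, a slow-type myosin, and Myl3, a slow light chain, were at 1.25-fold and 1.37-fold. The 3 slow fibre genes at 1.5-fold or more had lower levels than these, with Myl2 at 1.79-fold, Csrp3 at 1.62-fold and Myh7 at 1.55-fold. The median over the 7 troponin genes was 1.28, and that over all 9623 genes was -0.044.

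Regulators of muscle formation were mostly level or somewhat lower in replicate 1. Of 8 muscle regulators averaging 10 TPM or more, none was 1.5-fold apart in either direction, and their median log2 ratio was -0.20. Myog, a driver of terminal differentiation, had 137 TPM in replicate 1 and 132 TPM in replicate 2. Myod1, a muscle determination factor, had 67.0 TPM in replicate 1 and 91.2 TPM in replicate 2. By the binomial test, beside the 29.9% and 30.1% of all genes given above, 2 of the 13 regulators were higher in replicate 1 and 9 in replicate 2.

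**Figure D4:**
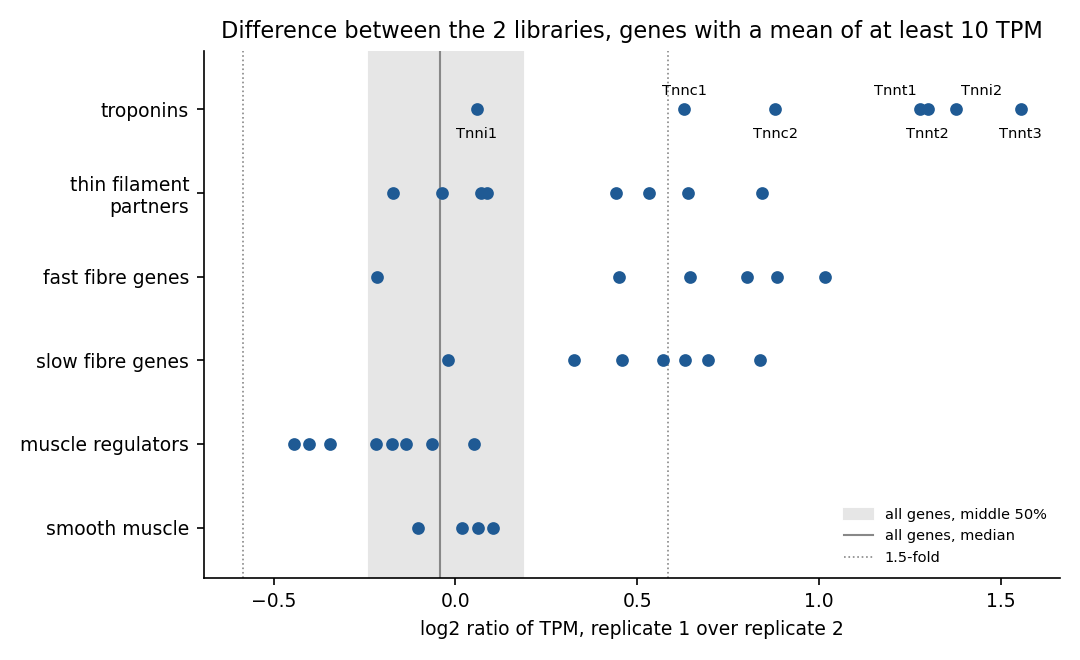
Log2 ratio of TPM, replicate 1 over replicate 2, for genes averaging 10 TPM or more in the troponin list and in other muscle lists. Each point is a gene, the grey band holds the middle 50% of all 9623 genes and the dotted lines mark 1.5-fold; 6 of 7 troponin points lie right of the 1.5-fold line, and muscle regulators lie around and left of 0.

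Genes of other tissues and base composition also moved between the libraries, and their part in the troponin ratios was not tested. Of 6 epidermis genes 3 were at least 1.5-fold higher in replicate 1, with summed levels of 1011 TPM in replicate 1 and 690.0 TPM in replicate 2. Of 8 cartilage genes 1 was 1.5-fold higher in replicate 2, with summed levels of 2651 TPM in replicate 1 and 2994 TPM in replicate 2. Smooth muscle genes summed to 396 TPM in replicate 1 and 392 TPM in replicate 2. Across 9606 genes that averaged 10 TPM or more and have a transcript model, GC content correlated with the log2 ratio at Spearman's rho -0.52. This is across genes of the same 2 libraries, which are not independent. The troponin transcripts have GC contents of 53.0% to 56.5%. Genes in the GC range of the troponins had a median log2 ratio of -0.14 (1994 genes), and genes in both their GC and length range had a median of 0.033 (292 genes).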

How the data were processed

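For each of the 2 E14.5 limb libraries, 1 gene table and 1 transcript table were used. Both were made by the authors against mm10 with GENCODE M4, as the deposited text file states; the quantification program is not stated in the sources used. They hold, per the file headers, the expected count (reads shared among features by estimate), TPM, FPKM and posterior mean TPM with interval bounds, and IsoPct, the percent share of a transcript in its gene. The deposited values were used as they stand; signal tracks were not used here. The level of the deposited intervals is likewise not stated.

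Symbols, exons and sequences came from GENCODE M21 on the same assembly (GRCm38). Of 82 troponin transcripts 80 had the same length in M21 and 1 was not in M21. Rows that name no gene (spike-in, phiX and tRNA) held 3.73% and 4.30% of all counts in replicates 1 and 2 and entered neither library sizes nor tests.

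The members, lists and tests were chosen with earlier results of these data known. With 1 group there was no contrast for edgeR's quasi-likelihood test. Paralogues were compared with an intercept-only limma 3.58.1 fit (eBayes with trend) to log2(TPM + 1) over genes averaging 1 TPM or more and the 8 members. Intervals of 95% combined the moderated variances of each pair as if its 2 genes were independent. No p was computed, since all pairs lie within the family. The libraries were compared with a two-sided conditional binomial test on rounded expected counts, with TMM-scaled library sizes from edgeR 4.0.16 (factors 1.01 and 0.992), for genes with at least 10 counts in total and Benjamini-Hochberg adjustment at 0.05. A second rule, without a test, was a ratio of 1.5-fold among genes averaging 10 TPM or more. The limma fit was checked on simulated libraries whose genes varied independently, and the binomial test on simulated counts with counting error only. Neither check covers a shift that genes share between libraries. Alternatives were other pseudocounts, no filter, CPM, FPKM, posterior mean TPM, DESeq2 1.42.0 size factors, total counts, protein-coding transcripts only and leaving out either library. The GC and length comparison and the ratio of TMM-scaled counts were added after seeing the data. Named were all 8 genes, transcripts with a mean share of at least 5%, alternative coding segments with an inclusion of 5% to 95% in either library, overlapping genes, and the 4 highest genes of a list. Heart markers and the slow fibre genes Myl2, Csrp3 and Myh7 fall outside that rule and were chosen after their values were seen.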

Additional observations from a re-analysis of the deposited data

How the results depend on the processing

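The intervals combine the spreads of the 2 genes of a pair as if independent, although both genes were measured in the same libraries. An analysis paired by library was not run. Of the 7 differences between paralogues, Tnni1 over Tnni3 and Tnni2 over Tnni3 kept intervals above 0 under all 6 alternative scales and filters. In CPM in place of TPM, Tnnc1 over Tnnc2 was 0.67 (0.070 to 1.27) and Tnnt2 over Tnnt1 was -0.72 (-1.52 to 0.076). With a pseudocount of 0.1, Tnnt1 over Tnnt3 was 1.21 (-0.0088 to 2.43). Without a filter on low genes the values did not move, but the intervals of all pairs except Tnni1 over Tnni3 widened, and the moderated fit had 1.68 degrees of freedom in place of 5.37. Tnni1 over Tnni2 was then 1.85 (-0.90 to 4.60), Tnnt1 over Tnnt3 1.19 (-2.79 to 5.18) and Tnnt2 over Tnnt1 -1.14 (-4.75 to 2.47). Leaving out replicate 2 turned Tnnt2 over Tnnt3 round to -0.069, and leaving out replicate 1 gave 0.18. The other 6 differences kept their direction in each library. These single-library values have no test.

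The 7 troponin genes called higher in replicate 1 stayed 7 with DESeq2 size factors, with total counts and without a filter. The shares in a subunit moved by more than 1 SD in CPM for Tnni3 (1.74%), Tnnt1 (48.7%) and Tnnt2 (29.2%). The mean of Tnni3 was 9.32 TPM by posterior mean. Transcript shares are estimates from reads that most forms have in common, so a form with few counts is the least certain. With 2 libraries, differences in splicing between them could not be tested.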

Other observations

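Lists of cell types without striated muscle gave values that no comparison above uses. Tendon and fibroblast genes summed to 3622 TPM in replicate 1 and 3141 TPM in replicate 2, with 1 of 7 genes at least 1.5-fold higher in replicate 1 and 1 in replicate 2. Endothelial genes summed to 140.4 TPM in replicate 1 and 132 TPM in replicate 2. Erythroid genes, which include the globins of red blood cells, summed to 10740 TPM in replicate 1 and 10614 TPM in replicate 2, and none of the 4 averaging 10 TPM or more was 1.5-fold apart. Proliferation genes summed to 918 TPM in replicate 1 and 811 TPM in replicate 2, and Mki67, a marker of cycling cells chosen after its values were seen, had 35.7 TPM in replicate 1 and 17.9 TPM in replicate 2.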
